A study of Macaca mulatta with 13 samples.

Results

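The miR-378 family was examined in small RNA libraries from rhesus monkey vastus lateralis, a muscle of the thigh. Biopsies came from animals on a control diet (Control, 5 samples) or on caloric restriction (CR, 8 samples), and the series is titled for how caloric restriction prevents sarcopenia, the decline of muscle in old age. Both groups were sampled from one muscle and prepared with one library kit, and the age and sex of the animals are not given in the labels used here. Members were the rows named miR-378 with or without a letter, a copy number or an arm, which gave 3 miRNAs (miR-378a, miR-378d and miR-378j) of 912 miRNA names in the table. Each had 1 row, none of them names an arm of the hairpin, and no row carries the bare name miR-378.

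MicroRNAs (miRNAs) are short RNAs that pair with messenger RNAs through a seed near their 5′ end and lower the output of those transcripts. The gene of miR-378a lies within PPARGC1B in the T2T-MMU8v2.0 annotation, and PPARGC1B encodes PGC-1β, a coactivator of genes for mitochondria and fatty acid oxidation. In mice, the miRNAs from the arms of the miR-378 hairpin repress the carnitine acetyltransferase Crat and the Mediator subunit Med13, and their loss raises oxidative capacity. In mouse myoblasts miR-378 lowers MyoR, an antagonist of MyoD, and so favours differentiation. The gene of miR-378d lies within no other annotated gene, and that of miR-378j lies within the spans of SYNRG and DDX52. In humans miR-378a-3p and miR-378d have the same seed and differ towards their 3′ ends, so the split of reads between their rows depends on how the authors' counting assigned them, which is not known.

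Each library held 1154326 (CR replicate 1) to 5392611 (CR replicate 6) counts in named miRNAs, and 397 to 476 miRNAs had at least 1 count. Levels are in CPM (counts scaled to a common library size) with scaling factors from edgeR's TMM method, which ran from 0.624 to 1.76. The largest factor belonged to Control replicate 4, which stood apart from the other libraries. The summed level of the muscle-enriched miRNAs (12 of 13 listed rows detected, miR-208b-5p at 0 in all libraries, and 8 rows past the filter on low counts summed) was 254619 CPM there against 446492 to 861119 CPM in the other Control samples and 343287 to 1169880 CPM in CR, where a value can pass the common library size because of the TMM factors. Most of this sum was miR-486-5p, at 240983 CPM in Control replicate 4. The level of miR-133a there was 12644 CPM, against a Control mean of 45023 ± 18343 CPM (SD, n = 5). The summed level of the fibroblast miRNAs (4 of 4 rows detected) was 2048 CPM in Control replicate 4. It was 718 to 1422 CPM in the other Control samples and 487 to 1636 CPM in CR. Endothelial miRNAs (9 of 9 rows detected, 6 of them summed) summed to 1081 CPM in this library. Their sum was 546 to 705 CPM in the other Control samples and 458 to 860 CPM in CR. The markers differed: miR-222-3p was 469 CPM in Control replicate 4 against a Control mean of 275 ± 117 CPM (SD, n = 5). There miR-126 was 143 CPM against a mean of 132 ± 54.2 CPM, and miR-424-3p was 2.33 CPM against 6.20 ± 3.38 CPM (both SD, n = 5). The part of these differences in the results below was not tested, and the main results are given with and without this library. In bulk samples, fewer cells of a type and less RNA per cell cannot be told apart.

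The family was among the most abundant miRNAs of this muscle, and nearly all of it was miR-378a. By counts miR-378a ranked 2 in 10 of the 13 libraries, 3 in CR replicate 5 and 4 in Control replicate 4 and CR replicate 1. The second member, miR-378d, ranked between 17 and 38 and made up 2.33 to 4.94% of the family's counts. Mature miRNAs are of like length, but ligation and size selection can shift counts between them, so these ranks are ranks of counts. The third member, miR-378j, had 13 counts over all libraries, 5 in Control and 8 in CR, with at least 1 count in 8 libraries and at most 3 in any. With 0 counted, up to 3 counts are still possible, which is 0.556 to 2.60 CPM in unscaled libraries. For this reason no fold is given for miR-378j, which did not pass the filter on low counts. In humans miR-422a also has this seed. It is named here after its value was seen, since its row held 1 count in all.

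The share of counts in the family did not separate the diets. Of all miRNA counts, the 3 members took 9.03, 10.8, 7.88, 4.20 and 10.5% in Control replicates 1 to 5. In CR the share ran from 5.96 to 10.7% with a median of 7.34%. The groups overlapped, and the lowest value of all was that of Control replicate 4 (95% exact binomial interval 4.18 to 4.21%, for counting error only, since PCR copies are not independent molecules). The means were 8.49% ± 2.68 (SD, n = 5) in Control and 7.77% ± 1.47 (SD, n = 8) in CR. The difference was -0.72 percentage points (exact permutation test, two-sided, p = 0.532, and 0.951 after adjustment over 4 measures). The smallest p that splits of 13 samples into 5 and 8 allow is 0.000777. With Control replicate 4 left out, the Control mean was 9.56% ± 1.37 (SD, n = 4), and the difference was -1.80 points (two-sided exact permutation p = 0.0727). Leaving out Control replicate 2 or 5 gave -0.14 and -0.21, and leaving out CR replicate 4 or 7 gave -0.47 and -1.15.

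A share of all counts depends on miR-486, a miRNA of muscle and red blood cells that took 42.4 to 70.8% of counts in a library. Out of the counts without miR-486, the family took 25.1, 22.9, 19.4, 7.29 and 22.4% in Control replicates 1 to 5. In CR the values ran from 14.4 (replicate 1) to 24.0% (replicate 8), with a median of 19.8%. All CR samples lay between Control replicate 4 and Control replicate 1. The means were 19.4% ± 7.07 (SD, n = 5) and 19.5% ± 3.08 (SD, n = 8), and the two-sided exact permutation test gave p = 0.975 (also after adjustment over 4 measures). The Control mean without Control replicate 4 was 22.4% ± 2.33 (SD, n = 4), and the difference was then -2.92 points (two-sided exact permutation p = 0.129). This difference also depended on other single libraries, as listed in the closing section.

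**Figure D1:**
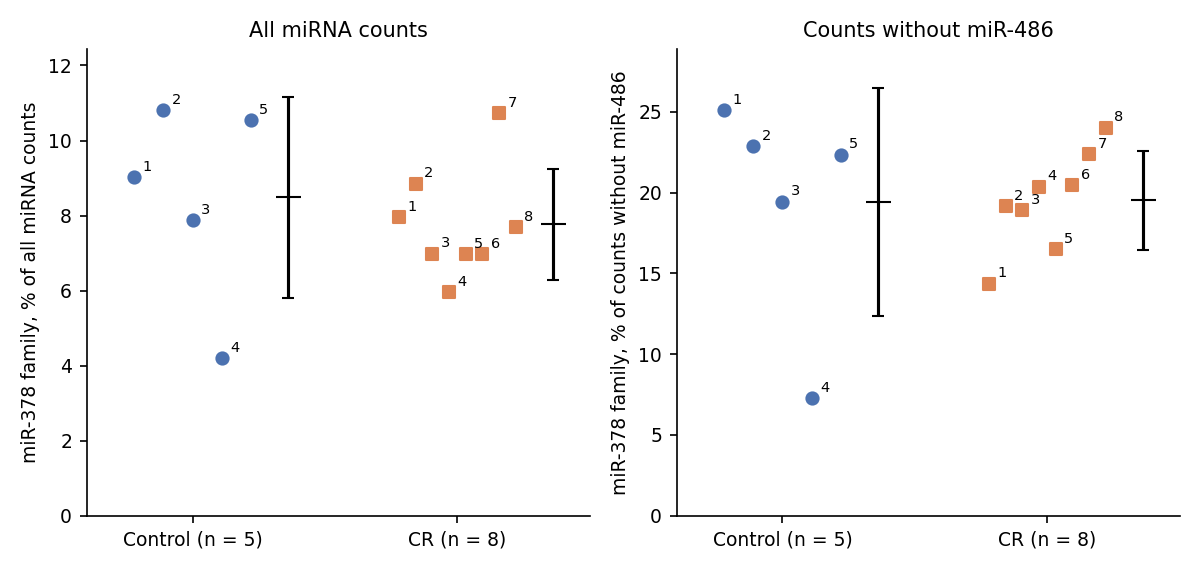
Share of miRNA counts in the miR-378 family, in percent of all miRNA counts (left) and of the counts without miR-486 (right). Points are libraries labelled with their replicate number, and bars are mean ± SD. Control replicate 4 is lowest in both, at 4.20 and 7.29%, and the groups overlap.

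The level of miR-378a, scaled with TMM factors, was 109965, 77457, 71490, 23011 and 109967 CPM in Control replicates 1 to 5. In CR it ran from 49089 (replicate 1) to 120327 CPM (replicate 8) with a median of 82130 CPM. The ranges overlapped, and 5 of 8 CR samples lay above the Control mean. The group means were 78378 ± 35740 CPM in Control (SD, n = 5) and 82337 ± 21056 CPM in CR (SD, n = 8). The level in Control replicate 4 was 25.0% of the mean of the other Control samples, 92220 ± 20636 CPM (SD, n = 4). Only 2 of 8 CR samples lay above that mean.

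The level of miR-378d was 4075, 2103, 2402, 828 and 3903 CPM in Control replicates 1 to 5. In CR it ran from 2139 (replicate 5) to 3344 CPM (replicate 6) with a median of 2864 CPM. All CR samples fell within the Control range, whose ends were Control replicates 4 and 1. The means were 2662 ± 1349 CPM (SD, n = 5) and 2838 ± 387 CPM (SD, n = 8). The other Control samples without replicate 4 had a mean of 3121 ± 1012 CPM (SD, n = 4).

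Neither tested member differed between the diets past the threshold. In the quasi-likelihood test of edgeR, adjusted by Benjamini-Hochberg over 263 miRNAs, 0 of the 2 members that passed the filter on low counts were called, and percent called over all miRNAs was 0%. At an unadjusted p under 0.05 there were 7 miRNAs, or 2.66%, and neither member was among them. DESeq2 and limma-voom also called 0, each with 7 at the unadjusted threshold. For miR-378a the fitted fold was 1.05, with a 95% interval of 0.673 to 1.64, and the log2 fold change was 0.0711 ± 0.31 (SE, edgeR adjusted p 0.985). For miR-378d the fold was 1.07, with a 95% interval of 0.707 to 1.61, and the log2 fold change was 0.0925 ± 0.28 (SE, edgeR adjusted p 0.985). Both intervals excluded a 2-fold change in either direction. Changes within these intervals could not be told from none at this spread. Without Control replicate 4 the folds were 0.893 (0.647 to 1.23) and 0.910 (0.680 to 1.22), so the direction of both turned with this library. With scaling to library totals alone the log2 values were -0.13 and -0.0236, while the median of all tested miRNAs moved from 0.0103 to -0.26. Both members lay above the median of all miRNAs with these scalings. In the fit without Control replicate 4 both lay below it (log2 values of -0.16 and -0.14 against a median of 0.0603). As the labels do not say that each sample is a different animal, p-values measure the spread between these samples.

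**Figure D2:**
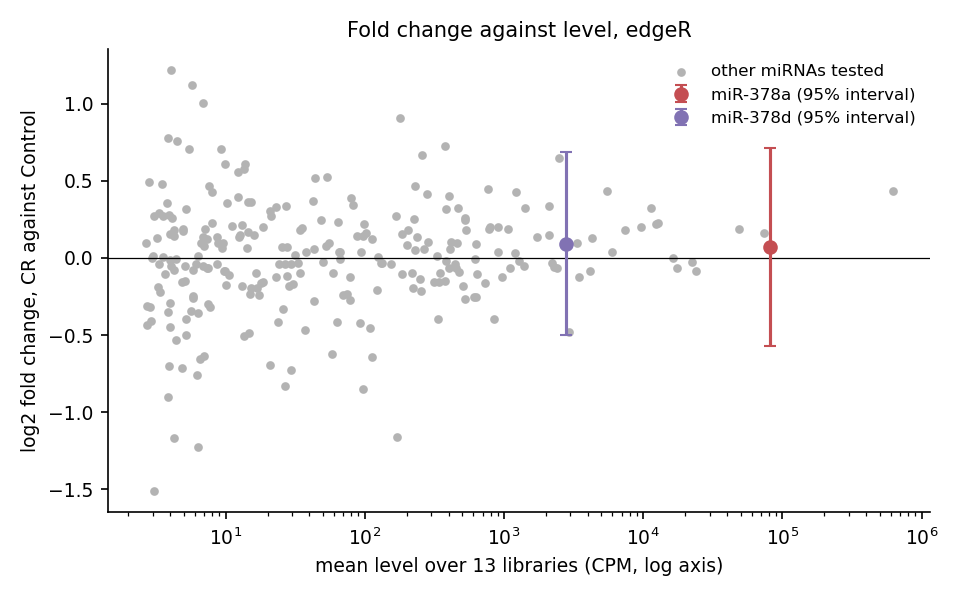
Log2 fold change of CR against Control by edgeR (vertical axis) against the mean level over 13 libraries in CPM (log axis) for 263 miRNAs. The 95% intervals of miR-378a (0.0711) and miR-378d (0.0925) include 0, and miR-378a is among the most abundant miRNAs.

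**Figure D3:**
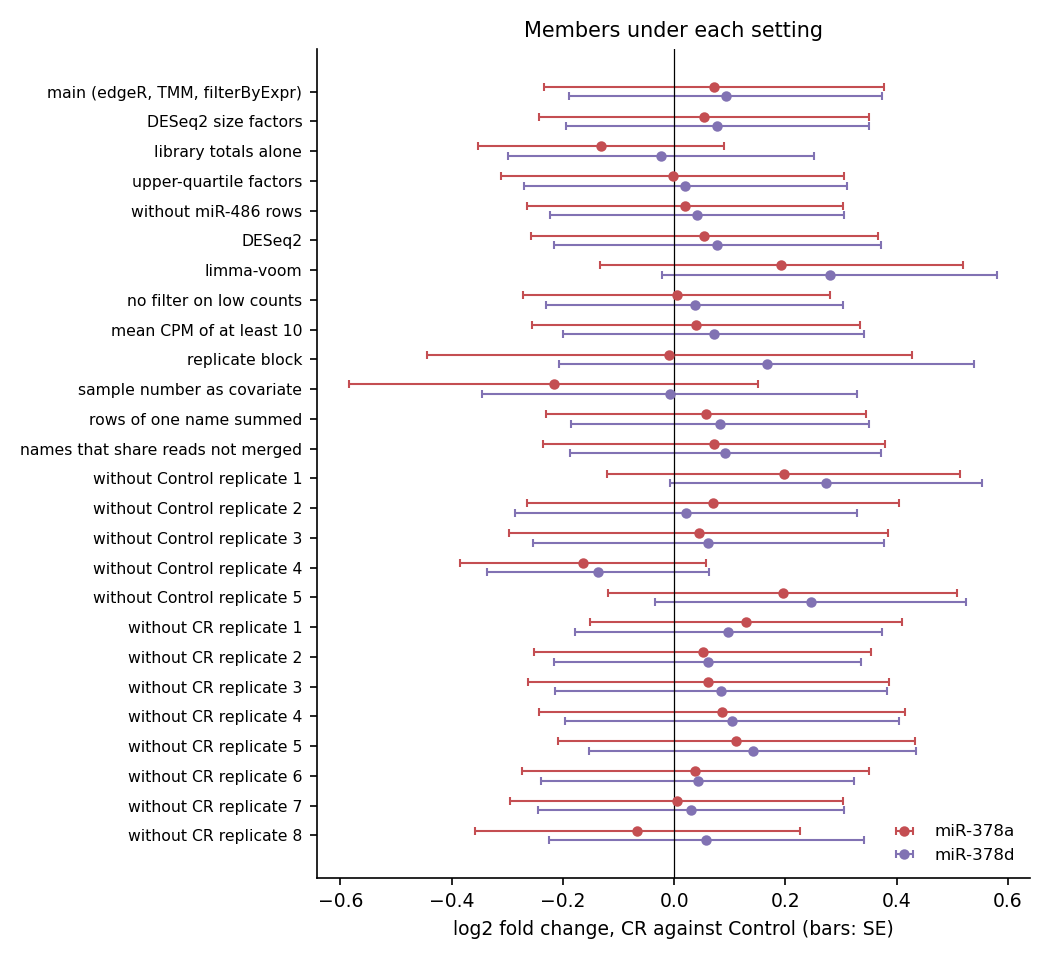
Log2 fold change of miR-378a and miR-378d, CR against Control, under each scaling, tool, filter and left-out library, with SE bars. The values of miR-378a run from -0.22 (sample number as covariate) to 0.20, and leaving out Control replicate 4 puts both members below 0.

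Within a library the ratio of miR-378d to miR-378a needs no scaling factor. For every 100 counts of miR-378a there were 3.71, 2.72, 3.36, 3.60 and 3.55 counts of miR-378d in Control replicates 1 to 5. In CR the ratio ran from 2.39 (replicate 8) to 5.20 (replicate 1) with a median of 3.47. Control replicate 4 was close to the other libraries here, so both members were low together in it. The ends of the range were both CR samples, and the remaining 6 CR samples lay between 3.27 and 3.79. The share of miR-378d within the family was 4.94% in CR replicate 1 (95% exact binomial interval 4.80 to 5.08%) and 2.33% in CR replicate 8 (2.28 to 2.38%), where the intervals again cover counting error only. CR replicate 1 also had the smallest library. Between the diets the mean log2 ratio was -4.89 ± 0.18 in Control (SD, n = 5) and -4.83 ± 0.31 in CR (SD, n = 8). The exact permutation test (two-sided) gave p = 0.713, and 0.951 after adjustment over 4 measures. The difference of 0.0652 turned to -0.0152 when CR replicate 1 was left out and to -0.0123 when Control replicate 2 was, and it was 0.15 without CR replicate 8. Without Control replicate 4 it was 0.0893 (two-sided exact permutation p = 0.624).

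The family was next set against the other muscle-enriched miRNAs, miR-1, miR-133a, miR-133b, miR-206, miR-208b and miR-499, of whose counts miR-133a (merged with miR-133c-3p, whose row held nearly the same reads) gave 90.4 to 95.7%. There were 2.18, 1.36, 1.31, 1.76 and 1.94 family counts per count of these miRNAs in Control replicates 1 to 5. In CR the ratio ran from 0.956 (replicate 1) to 1.95 (replicate 7) with a median of 1.55. Control replicate 4 lay in the middle of the Control samples on this measure, while its muscle-enriched sum, which includes miR-486, was the lowest of all libraries. CR replicate 1 was the only library with fewer family counts than counts of these muscle miRNAs. On the log2 scale the means were 0.75 ± 0.32 in Control (SD, n = 5) and 0.62 ± 0.32 in CR (SD, n = 8). The difference of -0.13 had p = 0.501 in the two-sided exact permutation test (0.951 after adjustment over 4 measures). Leaving out CR replicate 1 gave -0.0343, and leaving out Control replicates 1, 5, 2 and 3 in turn gave -0.0374, -0.0795, -0.21 and -0.22. Without Control replicate 4 the difference was -0.11 (two-sided exact permutation p = 0.6).

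**Figure D4:**
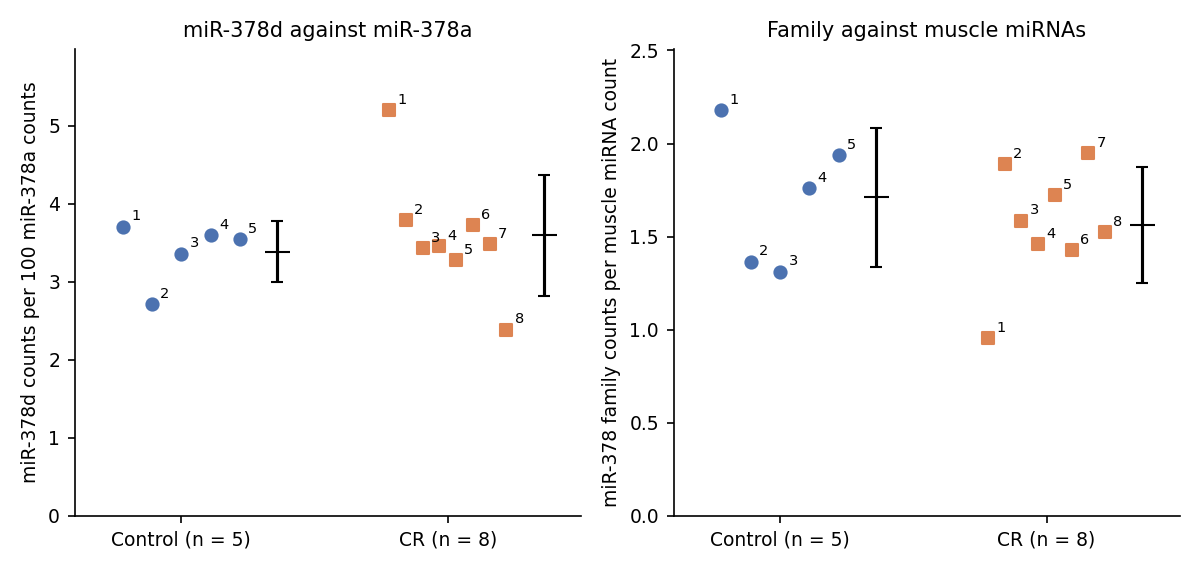
Counts of miR-378d per 100 counts of miR-378a (left), and family counts per count of the muscle-enriched miRNAs other than miR-486 (right). Points are libraries with their replicate number, and bars are mean ± SD. CR replicate 1 is highest on the left at 5.20 and lowest on the right at 0.956.

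Across the 13 libraries the miRNAs whose levels were most like those of the family were members of the miR-30 family, miRNAs abundant in muscle and heart. For miR-378a the 3 highest Pearson correlations of log2 CPM, among 262 miRNAs compared, were with miR-30a-3p (r = 0.923, Spearman rho = 0.857), miR-30e-5p (0.918, 0.813) and miR-30e-3p (0.918, 0.780). Their adjusted permutation p-values were 0.0173, 0.0105 and 0.0105 for r, and 0.0727, 0.0727 and 0.0885 for rho. For miR-378d they were miR-30e-5p (r = 0.935, rho = 0.901), miR-30a-5p (0.924, 0.819) and miR-30c-2-3p (0.918, 0.808). Their adjusted permutation p-values were 0.00786, 0.0384 and 0.0384 for r, and 0.0131, 0.0530 and 0.0530 for rho. The 2 members followed for each other, at order 4, with r = 0.909 and rho = 0.824 (adjusted permutation p over the pairs of miR-378a 0.0191 and 0.0727), and part of this can be reads shared between their rows, which was not tested. These pairs were picked as the highest of many, and all values of a library share its scaling factor.

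Control replicate 4 lay far from the rest in each of these pairs. The level of miR-30a-3p was 1216, 1024, 968, 384 and 1293 CPM in Control replicates 1 to 5, and 815 to 1472 CPM in CR with a median of 1161 CPM. That of miR-30e-5p was 358, 155, 225, 58.0 and 323 CPM in Control replicates 1 to 5, and 146 to 328 CPM in CR with a median of 231 CPM. Control replicate 4 was thus the lowest for both, as it was for miR-378a and miR-378d. Without the 2 libraries farthest from the median of the member (Control replicate 4 with CR replicate 1 for miR-378a, and with Control replicate 1 for miR-378d), r over the other 11 libraries was 0.732, 0.708 and 0.745 for the miR-378a pairs. It was 0.781, 0.802 and 0.625 for those of miR-378d, and between the members it was 0.769 with the libraries left out for miR-378a and 0.627 with those left out for miR-378d. Leaving out Control replicate 4 alone, r over 12 libraries ran from 0.658 to 0.826 for the 6 miR-30 pairs and was 0.683 between the members. As the pairs were chosen on these libraries, no p is given for the smaller sets. Scaled to library totals alone, r over 13 libraries was 0.770 for miR-378a with miR-30a-3p and 0.816 for miR-378d with miR-30e-5p.

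The lowest correlations were with miRNAs from DLK1-DIO3, an imprinted locus that encodes many miRNAs. They were miR-377-5p for miR-378a (r = -0.879, rho = -0.555, adjusted permutation p 0.0457 and 0.302) and miR-410-3p for miR-378d (r = -0.917, rho = -0.698, adjusted permutation p 0.0384 and 0.115). Control replicate 4 held the highest level of both, at 27.4 and 426 CPM, against CR samples at 4.46 to 8.02 and 47.3 to 91.0 CPM. Without the 2 farthest libraries r was -0.490 and -0.466, and without Control replicate 4 alone it was -0.557 and -0.641.

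**Figure D5:**
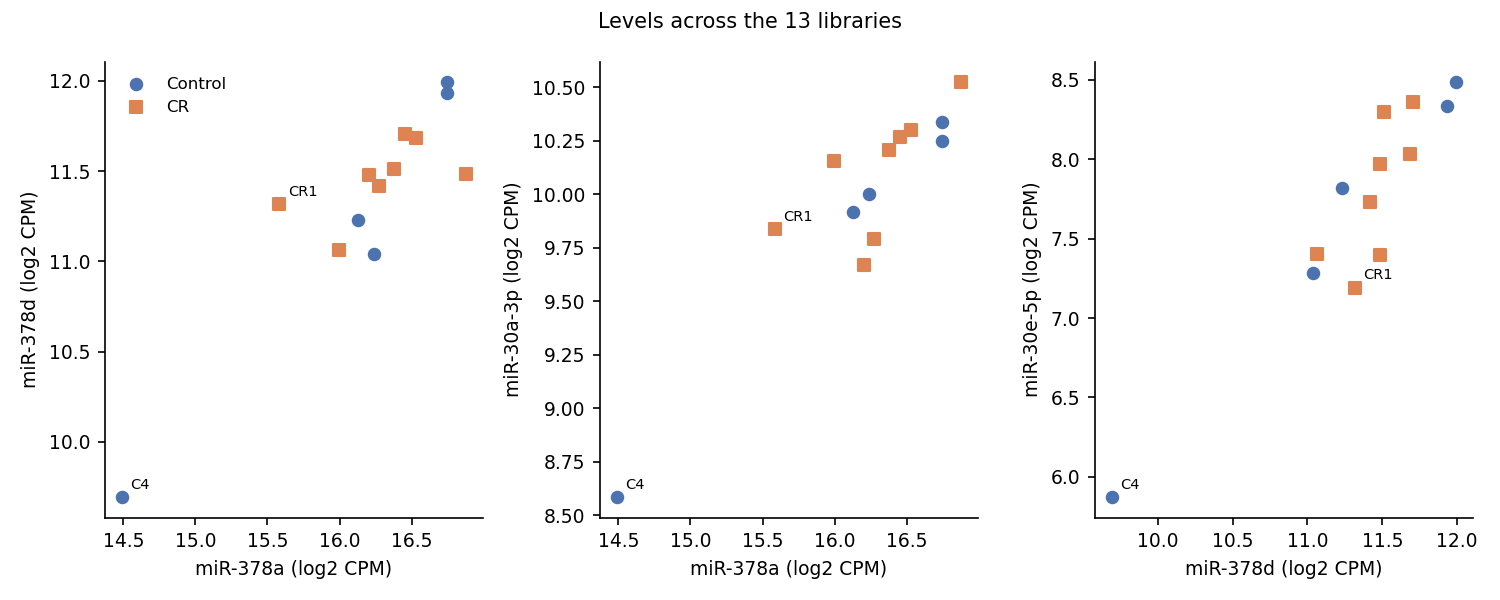
Levels in log2 CPM over the 13 libraries of miR-378d against miR-378a (left), miR-30a-3p against miR-378a (middle) and miR-30e-5p against miR-378d (right). Control replicate 4 (C4) is at the lower left of each panel, and over the other 12 libraries r was 0.683, 0.734 and 0.826.

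Other muscle miRNAs and markers of other cell types were set beside miR-378a in the same way. With miR-378a, r was 0.866 for miR-133a (adjusted permutation p 0.0542), 0.775 for miR-486-5p (0.0221), 0.799 for miR-1-3p (0.0453) and 0.707 for miR-206 (0.110), each over 13 libraries. Spearman's rho was 0.566, 0.692, 0.775 and 0.467 in turn (adjusted permutation p 0.301, 0.176, 0.0885 and 0.367). With Control replicate 4 left out r was 0.492, 0.672, 0.580 and 0.180. That of miR-486-5p was 0.0535 with library totals alone, where its own share sets the scale of all other miRNAs. For miR-499-5p and miR-208b-3p, encoded in myosin heavy chain genes and used here as slow-fibre markers, r was 0.358 and 0.190 (adjusted permutation p 0.383 and 0.666). It was -0.169 and -0.386 without Control replicate 4, but 0.641 and 0.526 over 13 libraries with library totals alone. For the 4 fibroblast miRNAs r ran from -0.682 (miR-214-3p) to -0.623 (miR-199a-3p), with adjusted permutation p-values of 0.0723 to 0.110. Without Control replicate 4 it ran from -0.489 to -0.331, and with library totals alone from -0.231 to -0.0443. Both sets thus depended on the scaling. For the red blood cell miRNA miR-451 r was 0.0744 (adjusted permutation p 0.878). Adipose miRNAs also went different ways, from -0.485 for miR-335-3p (adjusted permutation p 0.228) to 0.783 for miR-365-1-5p (0.0635), which is as high as muscle miRNAs. Without Control replicate 4 they ran from -0.356 (miR-335-3p) to 0.539 (miR-193b-5p). The 6 endothelial miRNAs went different ways, from -0.680 for miR-222-3p (adjusted permutation p 0.0782) through -0.0759 for miR-126 (0.871) to 0.508 for miR-424-3p (0.222), and without Control replicate 4 from -0.405 to 0.519.

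Other miRNAs known to act on mitochondria or oxidative metabolism were counted as a list chosen with earlier results of these data known. Of its 39 rows 22 passed the filter on low counts, 0 were called by edgeR (0% of all 263 miRNAs were) and 0 had an unadjusted p under 0.05 (2.66% of all did). The fitted level was higher in CR for 13 and lower for 9, with a median log2 fold change of 0.0856, against 136 higher and 127 lower and a median of 0.0103 over all 263 miRNAs. In the fit without Control replicate 4 it was higher for 15 of 22 with a median of 0.15, against 0.0603 for all. The most abundant were miR-133a, which acts in muscle differentiation (45023 ± 18343 CPM in Control, n = 5, and 51246 ± 12659 CPM in CR, n = 8, both SD), miR-181a-5p, linked to mitochondrial quality control in mouse muscle, miR-23a-3p, which represses muscle atrophy ligases in mice, and miR-103-3p, which represses caveolin-1 in mice. Their log2 fold changes were 0.19 ± 0.30, -0.00414 ± 0.18, 0.20 ± 0.22 and -0.18 ± 0.23 (SE), with edgeR adjusted p-values of 0.985, 0.997, 0.985 and 0.985. In the fit without Control replicate 4 they were -0.0509, -0.0263, 0.26 and -0.16 in turn. Within the list miR-499-5p and miR-208b-3p stood at 0.367 and 0.245 CPM in Control replicate 4. These levels are near the limit of detection, as 3 counts in that library are 0.647 CPM before its TMM factor of 1.76. Their Control means, with this library included, were 10.2 ± 9.09 and 6.65 ± 4.56 CPM (SD, n = 5).

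Markers of other cell types were compared beside the family, and 0 of the 30 tested were called by edgeR, as were 0% of all miRNAs. An unadjusted p under 0.05 was found for 2 of 30, miR-130a-3p and miR-9-5p (6.67%, against 2.66% of all miRNAs). The log2 fold change of miR-130a-3p was -0.62 (edgeR unadjusted p 0.0453), and -0.29 without Control replicate 4 (edgeR unadjusted p 0.276). That of miR-9-5p was 1.12 (edgeR unadjusted p 0.0197), and 1.18 without Control replicate 4 (edgeR unadjusted p 0.0213). The 4 fibroblast miRNAs tested had a median log2 fold change of -0.42 (all 4 lower in CR), which was -0.0940 without Control replicate 4. The 6 endothelial miRNAs had a median of -0.21 (5 of 6 lower) and -0.11 without it. The 6 adipose miRNAs tested, of 9 rows listed and detected and each also made in other tissues, had a median of 0.36 (5 of 6 higher) and 0.29 without it. Their summed level was 652 CPM in Control replicate 4, 1045 to 1730 CPM in the other Control samples and 1074 to 3041 CPM in CR. The leukocyte miRNAs (6 tested) had a median of -0.18, those of smooth muscle (3 tested) -0.0870 and those of neurons (3 tested) 0.61, and the single red blood cell and liver miRNAs tested were at -0.16 and -1.17. The liver value was -1.45 without Control replicate 4, and the medians of leukocytes, smooth muscle and neurons were -0.0332, -0.0231 and 0.29. For the 8 muscle-enriched miRNAs tested, which are not among the 30, the median was 0.42 (all 8 higher in CR, 0 called). Without Control replicate 4 it was 0.21 (5 of 8 higher). Over all 263 miRNAs the medians were 0.0103 and 0.0603 in turn. The part of these cell types in the level of the family was not tested.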

How the data were processed

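Small RNA was prepared with Trizol, isolated from a gel and made into libraries with the TruSeq small RNA kit, per the labels' protocols, and the submitters' processing notes name the build Mmul_8.0.1. How reads were aligned, counted and divided between similar miRNAs is not given in the sources used. The authors' deposited values are raw counts per miRNA row, judged from whole numbers whose totals differ between libraries. Of 1703 rows, 702 are predicted loci and were left out. For names listed more than once (67) only the row of highest total was used, and 3 pairs of names within 1% of each other in counts (totals of at least 20) were merged, which left 909 miRNAs. No 2 libraries of a group agreed within counting noise (the lowest chi-square per degree of freedom was 168.5), and each counted as 1 sample. Libraries prepared separately from 1 animal can also differ by more than counting noise, so this does not show that the animals differ.

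The test was edgeR 4.0.16 in R 4.3.3 (quasi-likelihood, robust, TMM, filterByExpr; threshold an adjusted p of 0.05) over 263 miRNAs. The script was tested on simulated data. DESeq2 1.42.0 and limma-voom 3.58.1 were alternatives. Shares and log2 ratios (0.5 counts added) were tested by exact two-sided permutation of the samples. Correlations used log2 CPM (prior count 2) with 100000 permutations. The members and lists were chosen with earlier results of these data known. Named miRNAs were the members, the 3 most alike and the 1 least alike to each tested member, the 4 most abundant tested miRNAs of the metabolism list, and cell type markers. Of the markers, those whose correlations are printed were chosen after their values were seen. Mature sequences were not used here.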

Additional observations from a re-analysis of the deposited data

Results flagged for a closer look

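In Control the log2 CPM of miR-378a in replicate 4 was 14.49, and its gap to the nearest of the other 4 samples was 0.725 of the group's range, above the critical value of 0.710 for 5 samples. The gap of this library was below that value for the CPM (0.558) and the share of counts (0.552) of miR-378a. It was also below it for the log2 CPM of miR-378d (0.585). In CR the log2 ratio of the family to the muscle-enriched miRNAs other than miR-486 was -0.0653 in replicate 1, and its gap to the nearest of the other 7 samples was 0.562 of the range, above the critical value of 0.526 for 8 samples. Chance alone gives such a gap in about 1 in 20 groups, and 20 groups of values were looked at here. These were overlapping measures of the same 13 libraries, so the number of gaps expected by chance is not known.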

How the results depend on the processing

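Under each of 25 alternatives 0 miRNAs were called. The log2 fold change of miR-378a turned to -0.13 with library totals alone, -0.00275 with upper-quartile factors, -0.22 with the sample number as covariate and -0.00875 in the fit with the replicate block. Leaving out 1 library at a time gave -0.16 (Control replicate 4) to 0.20 (Control replicate 1). That of miR-378d was -0.0236 with library totals alone and -0.00780 with the sample number, 0.17 with the replicate block, and ran from -0.14 to 0.27 without the same libraries. With limma-voom the values were 0.19 for miR-378a and 0.28 for miR-378d, the highest of miR-378d under any setting. The family's share differed by -1.80 to -0.14 points over single libraries left out. Out of counts without miR-486 the difference lay between -2.92 (Control replicate 4 left out) and 1.53 (Control replicate 1 left out) and was -1.55 with the replicate block. It was also below 0 without CR replicate 4, 6, 7 or 8 (-0.0136, -0.0244, -0.30 and -0.54 points in turn). The log2 ratio of miR-378d to miR-378a ran from -0.0152 (without CR replicate 1) to 0.15 (without CR replicate 8), and the ratio of the family to muscle miRNAs from -0.22 to -0.0343. The log2 fold changes stayed on the same side of the threshold in each fit, and so did the shares and ratios with single libraries left out. The replicate block tests of shares and ratios cannot go below an exact p of 0.0625. The cause of the turns was not tested.

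Replicate numbers did not pair the samples: deviations from group means of same-numbered samples correlated at -0.24 to -0.0474, and 0 of 5 Control samples correlated best with their own number. The correlation of miR-378a with miR-30a-3p was 0.77 with library totals alone, 0.73 without the 2 farthest libraries and 0.73 to 0.94 over single libraries left out. For miR-377-5p these were -0.59, -0.49 and -0.91 to -0.56. For miR-378d with miR-30e-5p they were 0.82, 0.78 and 0.83 to 0.95, and with miR-410-3p -0.35, -0.47 and -0.95 to -0.64. Depth did not limit miR-378a or miR-378d, and it left miR-378j at the limit of detection. Leaving names that share reads unmerged was chosen after seeing the data.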
